A study of Mus musculus with 6 samples.

Results

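The DNA replication machinery was followed in 497 single blood-forming stem and progenitor cells, taken from C57BL/6 mice, as a module of 46 genes, chosen from a written list of helicase, origin, polymerase, clamp and nucleotide supply genes, out of 13278 named genes in the tables. Counts could be recovered for all 46 members and for 12523 genes in all. The cells were sorted by surface proteins, among them CD201 and CD48, and profiled by a modified Smart-seq2 method with enrichment of the 3′ ends of transcripts, in 6 libraries, 1 for each group. The HPC1 library (82 cells) pooled the CD201+CD48- and CD48+ gates of HPC1, and the HSC1 library (84 cells) pooled the same gates of HSC1; the tissue label of both is spleen, while the title of the series names bone marrow. The MPP2-containing library (80 cells) combined MPP2 with the CD201-CD48- and CD48+ gates of HPC1 and the CD48+ gate of HSC1. The HSC2/MPP4 library (89 cells) held CD48+ HSC2 and MPP4, and the CD48-negative HSC2 library (86 cells) held the CD201+ and CD201- cells of that gate. The double-negative library (76 cells) held CD201-CD48- HSC1 and HPC1. These last 4 were labelled bone marrow. Mice were 8 to 10 weeks old, except for HSC2/MPP4 and CD48-negative HSC2 at 8 weeks, whose labels also give total RNA in place of polyA RNA. HSC and HPC stand for stem and progenitor cells and MPP for multipotent progenitors. No transgene, deletion or treatment is given for any group.

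A cell was known by its library and not by its gate, so a library is a mixture of the gates named for it. The labels do not say how many mice gave the cells of a library. With 1 library per group no difference has a replicate check, none was tested, and no p-value is given. A difference between libraries can come from more cells of a kind or from more RNA per cell, which cannot be told apart in a pooled level.

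DNA replication begins when the origin recognition complex, with Cdc6 and Cdt1, loads the ring of Mcm2 to Mcm7 onto DNA, a step called licensing. Cdc45 and the GINS complex then turn the ring into the moving helicase, primase and polymerase alpha lay down primers, and polymerases delta and epsilon extend them with the sliding clamp Pcna, which replication factor C loads. Many of these genes are known targets of E2F transcription factors, which act as cells leave G1 for S phase, and most haematopoietic stem cells at steady state are out of the cycle while progenitors divide more often.

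Promoters of 4 members are shown because these genes stand for a contrast in the results that follow: Mcm6 and Mcm5 of the helicase core, and Pclaf and Rrm2, which lay farthest above the median member in 2 of the 4 comparisons. Sequences are from RefSeq for build GRCm38.p6, read 5′ to 3′ on the gene's strand, from 250 bases before to 50 bases after the annotated start. Capitals mark the E2F letters searched, TTTCCCGC, TTTCGCGC, TTTGCCGC and TTTGGCGC, on both strands, with overlapping matches joined into 1 run.
Mcm6 (chr1:128359656-128359955, minus strand): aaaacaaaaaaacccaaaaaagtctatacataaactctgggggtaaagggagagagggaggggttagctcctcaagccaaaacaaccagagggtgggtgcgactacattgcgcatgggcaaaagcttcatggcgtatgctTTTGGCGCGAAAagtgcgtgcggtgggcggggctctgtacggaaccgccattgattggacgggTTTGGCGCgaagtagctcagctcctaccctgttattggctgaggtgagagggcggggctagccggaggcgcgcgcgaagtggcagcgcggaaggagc
Mcm5 (chr8:75109259-75109558, plus strand): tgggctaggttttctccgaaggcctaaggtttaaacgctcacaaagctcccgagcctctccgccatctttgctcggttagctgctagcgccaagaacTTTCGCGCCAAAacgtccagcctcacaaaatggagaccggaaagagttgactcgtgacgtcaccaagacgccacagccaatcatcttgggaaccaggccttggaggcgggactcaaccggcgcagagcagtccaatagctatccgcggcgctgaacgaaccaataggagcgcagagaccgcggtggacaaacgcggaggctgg
Pclaf (chr9:65890073-65890372, plus strand): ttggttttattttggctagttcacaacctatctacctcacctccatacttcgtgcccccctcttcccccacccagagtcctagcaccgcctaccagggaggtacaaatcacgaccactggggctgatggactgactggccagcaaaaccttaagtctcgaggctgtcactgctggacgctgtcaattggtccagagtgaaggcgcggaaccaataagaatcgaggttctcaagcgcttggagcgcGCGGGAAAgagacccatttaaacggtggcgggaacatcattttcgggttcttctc
Rrm2 (chr12:24708004-24708303, plus strand): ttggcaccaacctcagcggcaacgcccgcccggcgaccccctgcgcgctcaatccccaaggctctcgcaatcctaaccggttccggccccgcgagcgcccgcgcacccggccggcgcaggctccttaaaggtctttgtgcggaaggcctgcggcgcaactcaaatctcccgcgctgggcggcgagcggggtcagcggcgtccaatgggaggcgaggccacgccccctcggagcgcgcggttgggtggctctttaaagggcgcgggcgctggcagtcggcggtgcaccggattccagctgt
The Mcm6 window held 3 matches, of which a pair overlapped, the Mcm5 window held 2 overlapping matches, the Pclaf window held 1 and the Rrm2 window held 0. Promoters were matched for 39 of the 46 members; Mcm4, Gins1, Gins2, Gins4, Prim2, Pole and Rfc2 had no entry. Of the 39, 16 (41.0%) had at least 1 E2F match, against 3.3% of 17491 protein-coding genes in the same table. Matches were found in 4 of 5 matched helicase core genes (Mcm3, Mcm5, Mcm6 and Mcm7), 3 of 4 origin licensing genes (Cdc6, Cdt1 and Orc1), and 0 of 5 nucleotide supply genes. Primase and polymerase genes had 4 of 7, clamp and clamp loader genes 2 of 6 and helicase activation genes 1 of 3. Single-strand binding genes had 0 of 3, chromatin genes 1 of 4 and Okazaki fragment genes 1 of 2. The CCAAT letters, searched on both strands, were in 64.1% of the 39 and in 42.3% of all coding genes. The TTTGAA letters of the CHR element, which is known from genes of late cell cycle stages, were in 12.8% against 18.5%. A match says only that these letters lie in the window, and no match only that these exact letters do not. Neither shows whether E2F proteins act on a gene. In the GENCODE M21 annotation of GRCm38 the genes span chr1:128331590-128359664 (Mcm6), chr8:75109569-75128439 (Mcm5), chr9:65890237-65903266 (Pclaf) and chr12:24708241-24714146 (Rrm2).

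Depth differed between the libraries. Median counts per cell were 112832 in HPC1, 63092 in HSC1, 145496 in MPP2-containing cells, 35977 in HSC2/MPP4, 23540 in CD48-negative HSC2 and 105225 in double-negative cells, and single cells ranged from 530 to 665551 counts. No cell's recovered counts equalled those of another cell, and the columns carry no barcode. Of 18 genes listed as HSC markers, 16 to 18 were counted in each library, with a summed level of 1039 CPM (counts per 1000000 counts) in HSC2/MPP4 to 3331 CPM in HSC1. Genes of mature B, T and NK cells summed to 60.4 to 83.1 CPM and macrophage genes to 46.2 to 108 CPM. Lymphoid progenitor genes summed to 209 CPM in HPC1 up to 1748 in HSC2/MPP4, megakaryocyte and platelet genes to 201 in HSC2/MPP4 up to 4481 in HPC1, erythroid genes to 1226 in HSC2/MPP4 up to 6114 in HPC1, and granulocyte-monocyte progenitor genes to 367 in double-negative cells up to 9218 in HSC2/MPP4. Mature neutrophil genes summed to 4374 CPM in HPC1, 314 in HSC1, 2721 in MPP2-containing cells, 5206 in HSC2/MPP4, 6589 in CD48-negative HSC2 and 787 in double-negative cells, with 34.0 to 98.8% of them from 1 cell of the library.

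The module as a whole was highest in MPP2-containing cells and lowest in CD48-negative HSC2. The 46 genes together took 6171 CPM in HPC1 (exact 95% Poisson interval 6125 to 6216), 4309 in HSC1 (4259 to 4360), 7223 in MPP2-containing cells (7180 to 7266), 6560 in HSC2/MPP4 (6480 to 6640), 3590 in CD48-negative HSC2 (3520 to 3661) and 4120 in double-negative cells (4080 to 4160). These intervals cover counting error only, and amplified reads need not be independent molecules. Single cells weighed on these sums: the cell with most member counts held 6.45% of them in HPC1, 9.63% in HSC1, 5.61% in MPP2-containing cells, 7.52% in HSC2/MPP4, 12.1% in CD48-negative HSC2 and 17.0% in double-negative cells. The deposited score is a scaled value whose mean over all 497 cells is 0 for each gene without a score capped at 10. Its mean over members and cells was 0.032 in HPC1, -0.068 in HSC1 and 0.187 in MPP2-containing cells. It was 0.264 in HSC2/MPP4, -0.204 in CD48-negative HSC2 and -0.235 in double-negative cells. On that scale HSC2/MPP4 stood above the MPP2-containing library and the double-negative library was the lowest, so the order at both ends differs from that of the counts.

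Between cells the spread was wide in every library. Per cell, the sum of the 46 genes had a median of 3644 CPM in HPC1 (lowest 1210, highest 14870), 2488 in HSC1 (742 to 13550), 5658 in MPP2-containing cells (1695 to 16340), 5037 in HSC2/MPP4 (397 to 13670), 2116 in CD48-negative HSC2 (269 to 14140) and 2272 in double-negative cells (914 to 13760). The highest cell of each library thus reached 13550 CPM or more, and the libraries overlapped over most of their range. The mean and SD over cells were 5166 ± 3897 CPM in HPC1 (82 cells), 3967 ± 3265 in HSC1 (84 cells), 6443 ± 3846 in MPP2-containing cells (80 cells), 5800 ± 4160 in HSC2/MPP4 (89 cells), 2888 ± 2651 in CD48-negative HSC2 (86 cells) and 3464 ± 2837 in double-negative cells (76 cells).

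**Figure D1:**
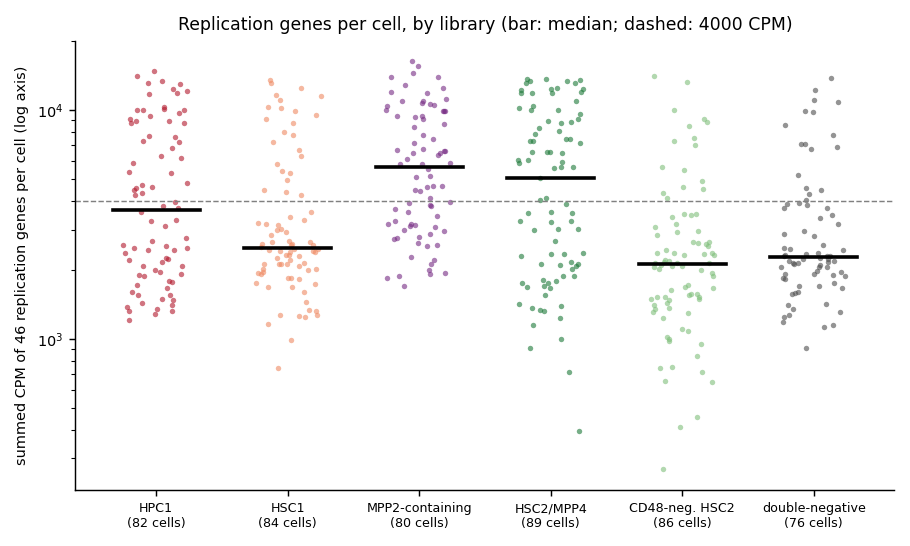
Summed CPM of the 46 replication genes in each cell (log axis), 1 point per cell and a bar at the median, for the 6 libraries. Medians lie at 5658 CPM in the MPP2-containing and 5037 CPM in the HSC2/MPP4 library and between 2116 and 3644 CPM in the others, and the highest cell of each library lies at 13550 CPM or above.

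Shares of cells were taken after each cell had been thinned to 10000 counts, which left out 1 HPC1, 4 HSC1, 0 MPP2-containing, 8 HSC2/MPP4, 20 CD48-negative HSC2 and 1 double-negative cell. More than 4000 CPM was reached by 46.9% of HPC1 cells (38 of 81, exact Clopper-Pearson interval 35.7 to 58.3%), 28.8% of HSC1 cells (23 of 80, 19.2 to 40%), 60.0% of MPP2-containing cells (48 of 80, 48.4 to 70.8%), 54.3% of HSC2/MPP4 cells (44 of 81, 42.9 to 65.4%), 22.7% of CD48-negative HSC2 cells (15 of 66, 13.3 to 34.7%) and 20% of double-negative cells (15 of 75, 11.6 to 30.8%). Without thinning the shares were 46.3% in HPC1, 28.6% in HSC1, 61.3% in MPP2-containing cells, 52.8% in HSC2/MPP4, 18.6% in CD48-negative HSC2 and 22.4% in double-negative cells. The sum is continuous, so a cell above the limit is in a range of the module and is not a cell type. The median total of cells above 4000 CPM was 183375 counts in HPC1 (against 98819 in the other HPC1 cells), 63745 in HSC1 (against 62337), 196955 in MPP2-containing cells (against 94998), 43145 in HSC2/MPP4 (against 22515), 30308 in CD48-negative HSC2 (against 20949) and 130556 in double-negative cells (against 101624). The gap was thus about 2-fold in 3 libraries and smallest in HSC1. The rank correlation of the sum with the cell's total was 0.26 in HPC1, 0.04 in HSC1, 0.36 in MPP2-containing cells, 0.33 in HSC2/MPP4, 0.11 in CD48-negative HSC2 and -0.04 in double-negative cells; its part in the sums was not tested.

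The 6 genes of the helicase core, Mcm2 to Mcm7, form the ring that is loaded at origins. Together they took 1097 CPM in HPC1, 752 in HSC1, 1360 in MPP2-containing cells, 1590 in HSC2/MPP4, 778 in CD48-negative HSC2 and 962 in double-negative cells. The HSC2/MPP4 library was the highest and HSC1 and CD48-negative HSC2 were the lowest. Mcm6 stood at 253 CPM in HPC1, 170 in HSC1, 328 in MPP2-containing cells, 391 in HSC2/MPP4, 243 in CD48-negative HSC2 and 227 in double-negative cells. Mcm5 followed the same order at the top, with 157 CPM in HPC1, 104 in HSC1, 214 in MPP2-containing cells, 236 in HSC2/MPP4, 88.2 in CD48-negative HSC2 and 143 in double-negative cells. Mcm2 went another way, since its highest library was HPC1: it stood at 212 CPM in HPC1, 94.6 in HSC1, 168 in MPP2-containing cells, 159 in HSC2/MPP4, 69.8 in CD48-negative HSC2 and 135 in double-negative cells. After thinning, all 6 helicase core genes were counted together in 16.0% of HPC1 cells (8.8 to 25.9%), 11.2% of HSC1 cells (5.3 to 20.3%), 20% of MPP2-containing cells (11.9 to 30.4%), 32.1% of HSC2/MPP4 cells (22.2 to 43.4%), 10.6% of CD48-negative HSC2 cells (4.4 to 20.6%) and 12% of double-negative cells (5.6 to 21.6%). Cells with none of the 6 made up 0.0% of the MPP2-containing library and 4.9 to 10.6% of the others.

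The members that turn the loaded ring into the helicase are Cdc45, the GINS subunits Gins1 to Gins4, and Mcm10. Cdc45 stood at 63.7 CPM in HPC1, 34.1 in HSC1, 75 in MPP2-containing cells, 72.1 in HSC2/MPP4, 20.2 in CD48-negative HSC2 and 27.3 in double-negative cells. HPC1, MPP2-containing and HSC2/MPP4 cells were all above the other 3 libraries for this gene. Gins4 gave a flatter pattern, with 96.5 CPM in HPC1, 95.7 in HSC1, 120 in MPP2-containing cells, 72.9 in HSC2/MPP4, 83.1 in CD48-negative HSC2 and 77.3 in double-negative cells. Gins2 was lowest in CD48-negative HSC2 at 16.9 CPM (12.4 to 22.5), against 40.5 in HPC1, 35.4 in HSC1, 56.6 in MPP2-containing cells, 50.2 in HSC2/MPP4 and 59.6 (54.9 to 64.6) in double-negative cells. All of the last 500 bases of Gins2 transcripts lie under exons of Gse1 on the other strand, in the GENCODE M21 annotation, and whether the counting used strand is not given in the sources used here, so the Gins2 values are uncertain.

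Among the origin licensing members, Cdc6 and Cdt1 load the helicase, and Orc1 and Orc6 are subunits of the origin recognition complex. Cdt1 stood at 71.3 CPM in HPC1, 76.7 in HSC1, 116 in MPP2-containing cells, 109 in HSC2/MPP4, 42.1 in CD48-negative HSC2 and 63.3 in double-negative cells. Cdc6 was highest in HSC2/MPP4 at 57.3 CPM and otherwise between 17.2 CPM in double-negative cells and 32.0 CPM in HPC1. Orc6 stood at 107 CPM in HPC1, 60.3 in HSC1, 93.9 in MPP2-containing cells, 106 in HSC2/MPP4, 50.7 in CD48-negative HSC2 and 43.3 in double-negative cells. Orc1 was counted in few cells, with 40, 14, 82, 39, 18 and 106 counts in the order HPC1, HSC1, MPP2-containing, HSC2/MPP4, CD48-negative HSC2 and double-negative.

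The primase and polymerase members took 725 CPM in HPC1, 484 in HSC1, 831 in MPP2-containing cells, 609 in HSC2/MPP4, 374 in CD48-negative HSC2 and 477 in double-negative cells. Here HPC1 stood above HSC2/MPP4, unlike in the helicase core. Prim2, the large subunit of primase, stood at 56.0 CPM in HPC1, 18.0 in HSC1, 46.1 in MPP2-containing cells, 45.1 in HSC2/MPP4, 25.9 in CD48-negative HSC2 and 28.0 in double-negative cells. Pold1, the catalytic subunit of polymerase delta, stood at 106 CPM in HPC1, 41.1 in HSC1, 108 in MPP2-containing cells, 74.2 in HSC2/MPP4, 48.2 in CD48-negative HSC2 and 74.4 in double-negative cells. Its accessory subunit Pold3 did not share that pattern: it stood at 41.7 CPM in HPC1 and 62.9 CPM in HSC1. Pole, the catalytic subunit of polymerase epsilon, was the single member with its highest level in HSC1, at 48.9 CPM in HPC1, 55.3 in HSC1, 36.2 in MPP2-containing cells, 25.5 in HSC2/MPP4, 21.6 in CD48-negative HSC2 and 10.3 in double-negative cells.

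The clamp Pcna stood at 256 CPM in HPC1, 148 in HSC1, 274 in MPP2-containing cells, 380 in HSC2/MPP4, 249 in CD48-negative HSC2 and 171 in double-negative cells. Pclaf, a small protein that binds Pcna, varied far more: 227 CPM in HPC1 (218 to 236), 164 in HSC1 (154 to 174), 360 in MPP2-containing cells (351 to 370), 401 in HSC2/MPP4 (381 to 421), 88.9 in CD48-negative HSC2 (78.2 to 101) and 58.8 in double-negative cells (54.1 to 63.8). In the double-negative library 1 cell held 54.0% of the Pclaf counts. Of the replication factor C genes, which encode the clamp loader, Rfc2 ranged from 326 CPM in double-negative cells to 401 CPM in HPC1. Rfc5 stood at 55.8 CPM in CD48-negative HSC2 and between 117 and 167 CPM in the other libraries; 49.9% of its 3′ end lies under exons of Wsb2 on the other strand. The single-strand binding genes Rpa1, Rpa2 and Rpa3 together took 424 CPM in HPC1, 306 in HSC1, 471 in MPP2-containing cells, 402 in HSC2/MPP4, 208 in CD48-negative HSC2 and 318 in double-negative cells.

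Lig1, the ligase that seals Okazaki fragments, stood at 404 CPM in HPC1, 231 in HSC1, 407 in MPP2-containing cells, 291 in HSC2/MPP4, 187 in CD48-negative HSC2 and 208 in double-negative cells. Fen1, the nuclease that trims the same fragments, gave almost no counts: 5 in HPC1, 5 in HSC1, 39 in MPP2-containing cells, 1 in HSC2/MPP4, 2 in CD48-negative HSC2 and 2 in double-negative cells. Of the 3′ ends of Fen1 transcripts, 88.6% lie under exons of Gm10143 on the other strand, and the part of this overlap in the low count was not tested.

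The nucleotide supply members are Rrm1 and Rrm2, the subunits of ribonucleotide reductase, Tyms and Tk1, which make thymidine nucleotides, and Dut, which removes dUTP. The 5 genes took 1304 CPM in HPC1, 769 in HSC1, 1584 in MPP2-containing cells, 1128 in HSC2/MPP4, 548 in CD48-negative HSC2 and 601 in double-negative cells. Rrm2 stood at 116 CPM in HPC1 (109 to 122), 53.6 in HSC1 (48.1 to 59.6), 125 in MPP2-containing cells (120 to 131), 112 in HSC2/MPP4 (102 to 123), 30.2 in CD48-negative HSC2 (24.1 to 37.4) and 29.0 in double-negative cells (25.8 to 32.6). Tyms stood at 266 CPM in HPC1, 128 in HSC1, 311 in MPP2-containing cells, 171 in HSC2/MPP4, 95 in CD48-negative HSC2 and 113 in double-negative cells. Both genes were at their highest in MPP2-containing cells, with HPC1 next.

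Of the chromatin members, Uhrf1, which helps to keep DNA methylation through replication, stood at 97.7 CPM in HPC1, 35.4 in HSC1, 77.2 in MPP2-containing cells, 115 in HSC2/MPP4, 44.6 in CD48-negative HSC2 and 24.9 in double-negative cells. Slbp, which binds histone messenger RNA, stood at 70.6 CPM in HPC1, 57.5 in HSC1, 93.4 in MPP2-containing cells, 90.5 in HSC2/MPP4, 47.1 in CD48-negative HSC2 and 44.8 in double-negative cells. The chromatin assembly genes went apart: Chaf1b lay between 60.5 CPM in CD48-negative HSC2 and 107 CPM in MPP2-containing cells, while Chaf1a had 27 to 204 counts per library, and 1 cell held 70.6% of those in double-negative cells. A level of at least 10 CPM in every library was reached by 40 members, and Fen1 was the 1 member below it in all 6. Over all 46 members, the MPP2-containing library was the highest for 22, HSC2/MPP4 for 12, HPC1 for 8, the double-negative library for 3 and HSC1 for 1. CD48-negative HSC2 was the lowest for 24, the double-negative library for 12, HSC1 for 9 and HSC2/MPP4 for 1.

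**Figure D2:**
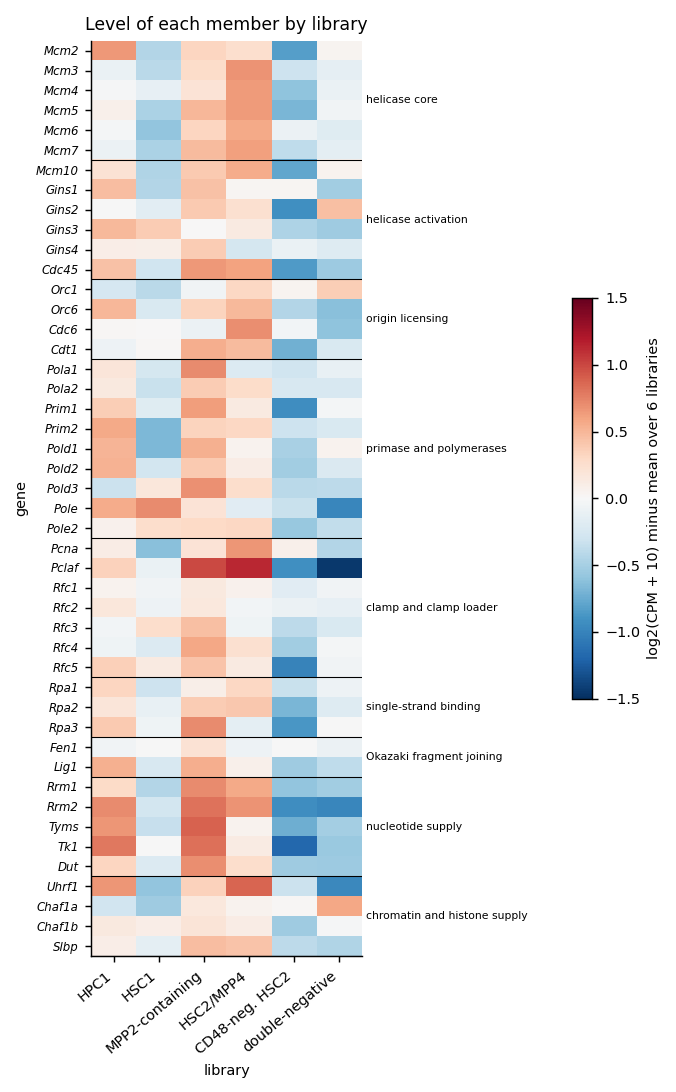
Level of each of the 46 members (rows, grouped by role) in the 6 libraries (columns), as log2 of CPM plus 10 minus the mean of that value over the 6 libraries. The MPP2-containing column is the highest for 22 members and the CD48-negative HSC2 column is the lowest for 24, and Pclaf spans the widest colours.

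The first comparison set HPC1 over HSC1, both labelled spleen. Replication genes were mostly higher in HPC1: 40 of 46 members had a log2 ratio above 0, with a median of 0.45 (quartiles of members 0.12 to 0.74), against a median of 0.00 and 49.4% above 0 over all 12523 genes. Ratios are log2 values of pooled CPM after 10 CPM had been added on both sides, so differences of genes at low level are understated. The members that reached 2-fold in HPC1 were 5 in number, Uhrf1 (1.24), Prim2 (1.24), Pold1 (1.18), Mcm2 (1.08) and Tyms (1.0), where 1.8% of all genes were. No member was at least 2-fold lower, where 1.91% of all genes were. Nucleotide supply members had the highest median by role, 0.79, and origin licensing members the lowest, 0.08, with Cdt1 at -0.09 and Cdc6 at 0.01. Pold3 (-0.50) and Rfc3 (-0.30) lay farthest below the median member. The median of the module was 0.21 when cells were thinned to 10000 counts, and 1 member was then at least 2-fold higher. Mature neutrophil genes were also higher in HPC1 (4374 against 314 CPM), and without the cells rich in them the median of the module was 0.38. Megakaryocyte and platelet genes summed to 4481 CPM in HPC1, against 662 CPM in HSC1, with a median ratio of 1.55 and 11 of 14 genes at least 2-fold higher. Erythroid genes summed to 6114 CPM in HPC1, 50.4% of them from 1 cell, against 2637 CPM in HSC1, and lymphoid progenitor genes to 209 CPM in HPC1 against 478 CPM in HSC1. The part of these 3 lists in the replication ratios was not tested.

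In the other fixed lists of this comparison, 30 of 40 other replication genes had a ratio above 0 (median 0.27) with Atad5 (1.03), an unloader of the clamp, and Asf1b (1.01), a histone chaperone, among the highest and Donson (-0.89) the lowest. Of 30 other nucleotide supply genes 18 were above 0 (median 0.14), and Rrm2b, the reductase subunit used outside S phase, stood at 12 CPM in HPC1 against 36.2 CPM in HSC1 (-1.07). Of 32 genes of E2F and G1/S control 24 were above 0 (median 0.16); E2f7 (1.01) and Skp2 (1.04) stood at the top, and Rbl2 (-0.98), a pocket protein of quiescent cells, and E2f5 (-1.37) at the bottom. Of 26 mitosis genes 25 were above 0 (median 0.66), and 29.5% of mitosis counts in HSC1 came from 1 cell, against 12.8% in HPC1. Of replication-dependent histone genes, 16 of 46 measured were above 0, with a median of -0.23. How completely this 3′ end method counts histone RNA was not tested.

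The second comparison set the MPP2-containing library over double-negative cells, 2 libraries with bone marrow as their tissue. Both held the CD201-CD48- gate of HPC1. Here 43 of 46 members were above 0 with a median of 0.61 (quartiles 0.42 to 0.95), against 48.4% of all genes above 0. The 10 members at least 2-fold higher, where 1.92% of all genes were, included all 5 nucleotide supply members: Rrm2 (1.79), Tyms (1.39), Tk1 (1.38), Dut (1.24) and Rrm1 (1.23). The others were Pclaf (2.43), Uhrf1 (1.32), Cdc45 (1.19), Pole (1.18) and Pold3 (1.08). The helicase core had a smaller median of 0.46, from 0.29 for Mcm2 to 0.62 for Mcm7, and none of its 6 genes reached 2-fold. Chaf1a and Orc1 were lower (both -0.42), on few counts. No member was at least 2-fold lower, where 1.95% of all genes were. The number of 2-fold members moved with the treatment of cells: 16 without the highest cell of each gene, 18 without the deepest 10% of cells and 25 when the mean of log values over cells was compared. Pclaf stood at 3.17 when the cell with most member counts was left out of each library, and the median of the module was then 0.79. Mature neutrophil genes summed to 2721 CPM in MPP2-containing cells, against 787 CPM in double-negative cells, and the median without cells rich in them was 0.62. HSC markers summed to 1372 CPM in MPP2-containing cells, against 2707 CPM in double-negative cells, with a median ratio of -0.93 and 9 of 18 genes at least 2-fold lower. Granulocyte-monocyte progenitor genes summed to 1876 CPM in MPP2-containing cells, 41.4% of them from 1 cell, against 367 CPM in double-negative cells. The part of both lists in the replication ratios was not tested.

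Of the other lists, 34 of 40 other replication genes were above 0 (median 0.37), with Mms22l (1.32), Timeless (1.31), a fork protection gene, and Dbf4 (1.19), the activator of the Cdc7 kinase that starts origins, at the top. Other nucleotide supply genes were near even, with 16 of 30 above 0 and a median of 0.16, unlike the 5 nucleotide supply members, and Rrm2b was lower here too (9.65 against 34.1 CPM, -1.17). Of 32 E2F and G1/S genes 21 were above 0 (median 0.41), with Cdkn1a (1.97), a cyclin-dependent kinase inhibitor, E2f8 (1.66), a repressor of the family, and Cdk6 (0.99) highest and Mycn (-0.95) lowest. All 26 mitosis genes were above 0, with a median of 0.95. In double-negative cells 36.9% of mitosis counts came from 1 cell, against 6.14% in MPP2-containing cells. Replication-dependent histones were above 0 for 32 of 46 (median 0.26).

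The next comparison set HSC2/MPP4 over CD48-negative HSC2, the pair with the fewest counts per cell. A total of 44 of 46 members were above 0, with a median of 0.75 (quartiles 0.55 to 1.12), where 43.6% of all genes were above 0. Of the 46, 16 were at least 2-fold higher, where 1.8% of all genes were, and none was at least 2-fold lower, where 3.19% of all genes were. The helicase core had a median of 1.04 and 4 of its 6 genes were among the 16: Mcm5 (1.33), Mcm4 (1.24), Mcm2 (1.08) and Mcm7 (1.0). Helicase activation added Cdc45 (1.45), Mcm10 (1.33) and Gins2 (1.16), and licensing added Cdt1 (1.2). Pclaf (2.05), Rfc5 (1.14), Rrm2 (1.61), Tk1 (1.30), Rrm1 (1.16), Uhrf1 (1.2), Rpa2 (1.09) and Prim1 (1.08) made up the rest. Gins4 (-0.17), Gins1 (0.00) and Chaf1a (0.03) lay farthest below the median member. The number that reached 2-fold was 3 with 50 CPM added in place of 10, and 24 when the mean of log values over cells was compared. Granulocyte-monocyte progenitor genes differed widely between these libraries, at 9218 CPM in HSC2/MPP4 against 592 CPM in CD48-negative HSC2, with 54.3% of the HSC2/MPP4 counts from 1 cell. HSC markers summed to 1039 CPM in HSC2/MPP4, against 3307 CPM in CD48-negative HSC2, with a median ratio of -1.32 and 13 of 18 genes at least 2-fold lower. Erythroid genes summed to 1226 CPM in HSC2/MPP4, 39.5% of them from 1 cell, against 4428 CPM in CD48-negative HSC2, 47.4% of them from 1 cell. The median erythroid ratio was -0.31, with 5 of 14 genes above 0. Lymphoid progenitor genes summed to 1748 CPM in HSC2/MPP4 against 789 CPM in CD48-negative HSC2. The part of these lists in the replication ratios was not tested.

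Of the other lists, 33 of 40 other replication genes were above 0 (median 0.36), led by Mcm8 (1.29) and Gmnn (1.23), the inhibitor of Cdt1. Other nucleotide supply genes had a median of 0.50 with 26 of 30 above 0, led by Mthfd1 (1.12), a folate enzyme, and Umps (1.08) of pyrimidine synthesis, and Samhd1, which degrades deoxynucleotides, was the lowest (36.7 against 85.3 CPM, -1.03). Of 32 E2F and G1/S genes 22 were above 0 (median 0.47); Tfdp1 (1.38), the partner of E2F proteins, Ccna2 (1.26) and Ccnd1 (1.17) were the highest and Tfdp2 (-1.19) the lowest. Mitosis genes were above 0 for 25 of 26, with a median of 0.62, and replication-dependent histones for 38 of 46, with a median of 0.34. In CD48-negative HSC2 63.7% of mitosis counts came from 1 cell, against 17.7% in HSC2/MPP4.

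These 3 comparisons share no library, but they share gates. The CD48+ gates of HSC1 and HPC1 are in the first pair and also in the MPP2-containing library, so these are not fully separate comparisons. A total of 36 of the 46 members were above 0 in all of them, where 14.8% of all genes were, among them Gins1 with a ratio just above 0 in the last. Uhrf1 was the 1 member at least 2-fold higher in all of them, with log2 ratios of 1.24, 1.32 and 1.2, where 0.0878% of all genes were. Over 12 alternatives on counts its lowest ratios were 0.79, 0.76 and 0.8, below 2-fold in each comparison. A further 7 members were at least 2-fold higher in 2 of the comparisons, where 0.743% of all genes were, and 14 in 1, where 3.77% were.

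The last comparison set CD48-negative HSC2 over the double-negative library. These are the 2 libraries that served as the lower side of the 2 comparisons before, so its values are not independent of theirs, and they also differ in labelled RNA and in depth. The median member stood at -0.18 (quartiles -0.50 to 0.06) and 16 of 46 were above 0, where 48.9% of all genes were. No member was at least 2-fold higher, where 4.13% of all genes were, and 1, Gins2 (-1.37), was at least 2-fold lower, where 2.6% of all genes were. Gins2 stood at -0.47 when cells were thinned to 10000 counts. In the means of the deposited scores the median member was at 0.04, on the other side of 0, so the direction of this small difference depends on the scale. Rfc5 (-0.95) lay below the median member, and Uhrf1 (0.65), Pole (0.64) and Cdc6 (0.56) above it. Replication-dependent histones were above 0 for 5 of 46, with a median of -0.50 and 10 genes at least 2-fold lower. Of the 46, 10 had no count in CD48-negative HSC2. How completely histone RNA was counted in either labelled kind of RNA was not tested. Of the other lists the medians were -0.10 for other replication genes, -0.22 for other nucleotide supply, -0.08 for E2F and G1/S control and -0.27 for mitosis, and Cdkn1a stood apart at 63.7 against 7.39 CPM (2.08). HSC markers ran from -2.95 to 3.47 (median -0.52), with 6 of 18 at least 2-fold lower and 4 higher. Megakaryocyte and platelet genes summed to 467 CPM in CD48-negative HSC2 against 1291 CPM in double-negative cells, with 8 of 14 at least 2-fold lower. In the same order, mature neutrophil genes summed to 6589 and 787 CPM, and lymphoid progenitor genes to 789 and 371 CPM. The part of these lists in the replication ratios was not tested.

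**Figure D3:**
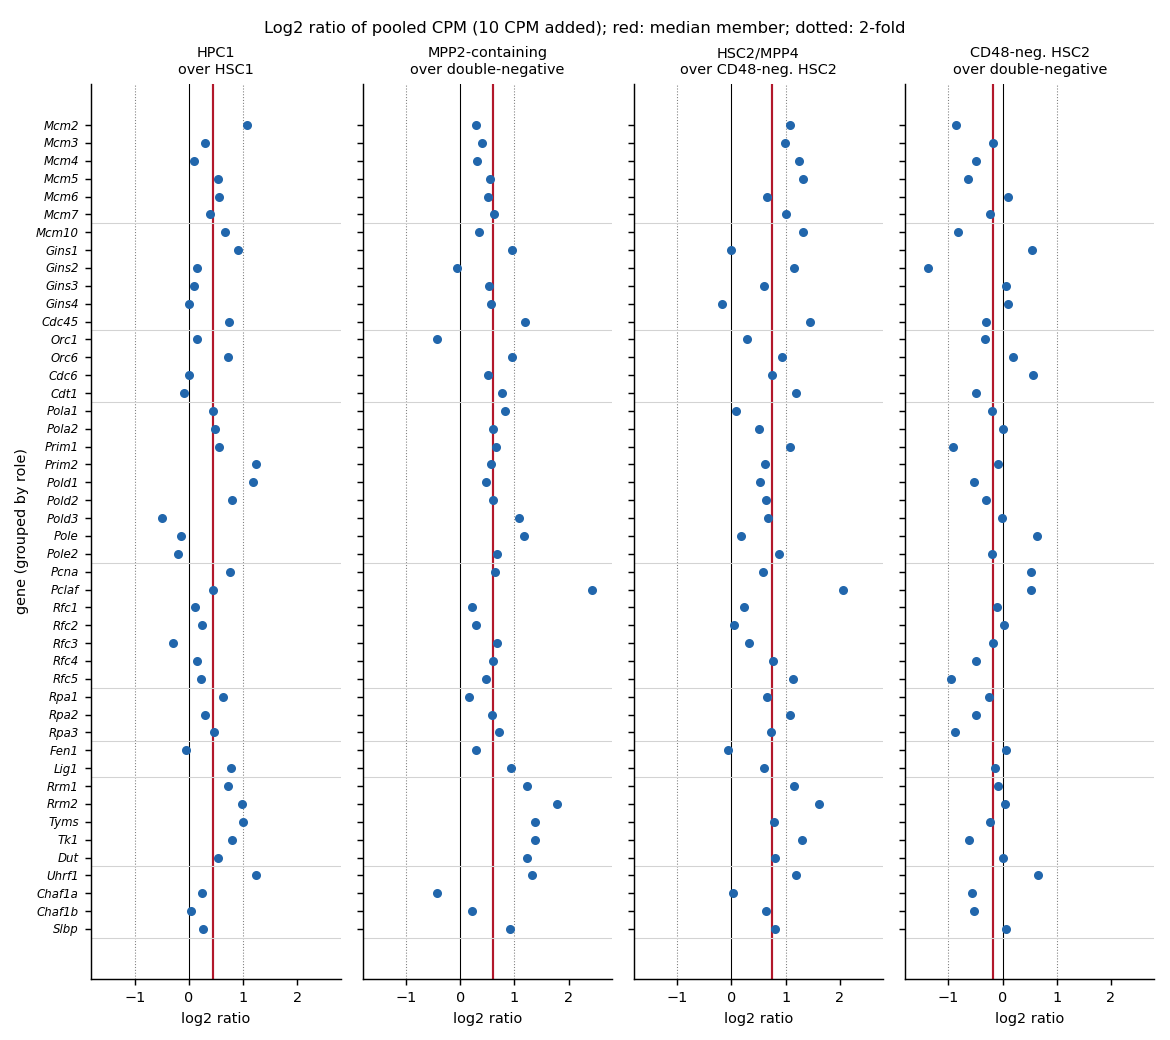
Log2 ratio of pooled CPM, with 10 CPM added to each side, for each of the 46 members (rows, grouped by role) in the 4 comparisons (panels); the red line is the median member and dotted lines mark 2-fold. Medians lie at 0.45, 0.61 and 0.75 in the first 3 panels and at -0.18 in the last, and Pclaf lies farthest to the right in both middle panels.

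Across the cells of a library most members moved with the rest of the module. Correlations were taken over the cells of each library between log2 of CPM plus 10 of a member and the summed level of the other 45, averaged over the 6 libraries; the cells share a library, its depth and its amplification, so these are descriptions with no test. The median member had a Pearson correlation of 0.50, which was 0.39 after thinning to 10000 counts. By library the median member was at 0.56 in HPC1, 0.48 in HSC1, 0.57 in MPP2-containing cells, 0.58 in HSC2/MPP4, 0.38 in CD48-negative HSC2 and 0.44 in double-negative cells. Lig1 (0.72), Mcm5 (0.67) and Uhrf1 (0.65) were closest to the rest. Fen1 (0.19), Orc1 (0.24), Chaf1a (0.25), Pole (0.27) and Gins4 (0.29) were farthest from it; Fen1, Orc1 and Chaf1a were counted in few cells, whereas Gins4 was counted in 43.0 to 87.5% of the cells of a library.

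Members also differed in how closely they went with helicase genes and with mitosis genes. The nucleotide supply members had a median correlation of 0.44 with the summed level of 26 mitosis genes, and the helicase core and licensing members had 0.16 and 0.13. Pclaf (0.55), Tk1 (0.51), Tyms (0.46), Rrm1 (0.44) and Rrm2 (0.42) had the highest values, and Mcm6 (0.08), Cdt1 (0.11), Pole (0.08) and Chaf1b (0.05) were near 0. Dut, the other nucleotide supply member, stood at 0.26, below Mcm10 (0.39), Cdc45 (0.34) and Rfc4 (0.34). These are means of libraries that differed: Mcm6 stood at 0.35 in HSC1 and -0.25 in MPP2-containing cells. Of the 46 members, 9 had a higher mean correlation with the mitosis genes than with the helicase core. The gap was widest for Pclaf (0.55 against 0.38), Tk1 (0.51 against 0.41) and Rrm1 (0.44 against 0.36), then Gins3 (0.27 against 0.22). Tyms (0.46 against 0.44), Prim2 (0.33 against 0.31), Rrm2 (0.42 against 0.41), Mcm10 (0.39 against 0.38) and Chaf1a (0.2 against 0.19) were nearly even. Pclaf, Rrm2, Tyms and Tk1 were also the 4 members with the largest ratios in the second comparison.

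**Figure D4:**
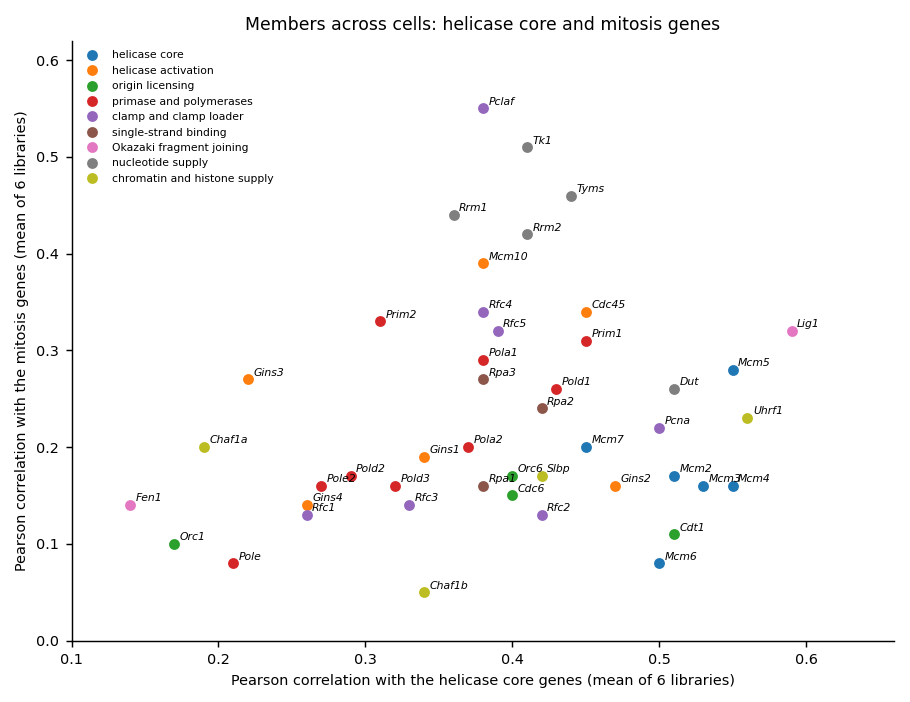
Each of the 46 members by its Pearson correlation over cells with the summed helicase core genes (horizontal) and with the summed 26 mitosis genes (vertical), both averaged over 6 libraries; colours mark roles and a helicase gene is left out of its own sum. Pclaf (0.55), Tk1 (0.51) and Tyms (0.46) lie at the top and Mcm6 (0.08) and Cdt1 (0.11) at the lower right.

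Cells with much replication RNA and cells with much mitosis RNA were counted at the same limit, although the sums cover different numbers of genes. After thinning, cells above 4000 CPM of replication genes that were also above 4000 CPM of mitosis genes numbered 12 of 38 in HPC1 (31.6%, 17.5 to 48.7%), 5 of 23 in HSC1 (21.7%, 7.5 to 43.7%), 21 of 48 in MPP2-containing cells (43.8%, 29.5 to 58.8%), 9 of 44 in HSC2/MPP4 (20.5%, 9.8 to 35.3%), 2 of 15 in CD48-negative HSC2 (13.3%, 1.7 to 40.5%) and 2 of 15 in double-negative cells (13.3%, 1.7 to 40.5%). Cells above the limit for mitosis genes alone numbered 2 in HPC1, 0 in HSC1, 10 in MPP2-containing cells, 9 in HSC2/MPP4, 2 in CD48-negative HSC2 and 5 in double-negative cells. With or without replication, cells above it for mitosis genes numbered 14, 5, 31, 18, 4 and 7 in the same order. They were fewer than the cells above it for replication genes in every library, which capped the percentages. In HSC1 21.7% was the highest value possible. The percentages therefore cannot show whether replication and mitosis RNA lay in separate cells. The rank correlation of the sums over cells was 0.57 in HPC1, 0.42 in HSC1, 0.09 in MPP2-containing cells, 0.42 in HSC2/MPP4, 0.19 in CD48-negative HSC2 and 0.29 in double-negative cells. The MPP2-containing library thus had both the largest number of cells high for mitosis genes, 31 of 80, and the lowest of these correlations. In CD48-negative HSC2, 63.7% of all mitosis counts came from 1 cell.

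**Figure D5:**
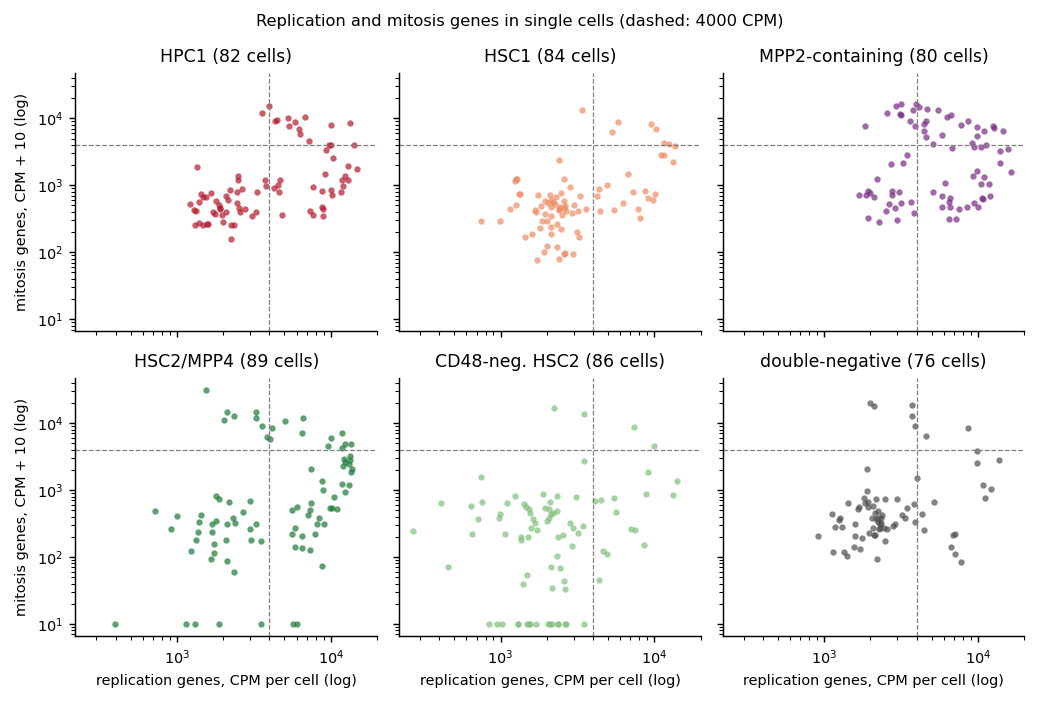
Summed CPM of the 46 replication genes (horizontal, log axis) and of 26 mitosis genes plus 10 (vertical, log axis) in each cell, in 1 panel per library; dashed lines mark 4000 CPM. Points are unthinned sums of all cells. After thinning, which is not drawn, 21 of 80 MPP2-containing cells and 2 of 66 CD48-negative HSC2 cells were above the limit for both sums.

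The genes outside the module that were most like it were taken from 7161 genes counted in at least 10% of the cells of each library, by the mean over 6 libraries of the Pearson correlation with the summed members. Among the 10 highest were Hells (0.68), Gmnn (0.65), Cenph (0.64), Tipin (0.63), Clspn (0.60), Spc24 (0.60), Tcf19 (0.59), Nasp (0.59) and Cenpk (0.57), where the median of all genes compared was 0.05. Hells is a chromatin remodeller, Tipin and Clspn belong to the fork checkpoint, Nasp carries histones, and Cenph, Cenpk and Spc24 are kinetochore genes. At the other end stood Tsc22d3 (-0.37), a glucocorticoid-induced gene, Ifitm1 (-0.36), Txnip (-0.35), Gimap6 (-0.33) and Pik3ip1 (-0.33), which is an inhibitor of phosphoinositide 3-kinase; these were named after their values were seen.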

How the data were processed

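Per the submitters' processing notes, reads were handled with TopHat and HTSeq on mm10; their versions were not given in the sources used here. Scores per gene and cell were deposited by the authors; the values show them to be natural-log counts per 10000 with 2 covariates regressed out, scaled over 497 cells and capped at 10. Whole counts were recovered from these scores for 12523 of 13278 named genes; all 2002740 values up to 50 came out whole within 0.01, and 6 lines without a name were dropped. A gene was kept only where some scale made most of its low values whole, so wholeness is in part the filter. Scores at the cap, 5028 in all, give lower bounds of counts, and 2779 recovered genes held such values. Recovered genes held 53.4 to 81.3% of the total counts of a cell (median 63.2%). Recovered counts rest on this inversion. It was tried on simulated data made with the same scaling, which cannot show that the deposited scores were made that way. Tools were Python 3.11.15, NumPy 2.4.6, SciPy 1.17.1, pandas 2.3.3 and Matplotlib 3.10.9. Counts were summed over the cells of a library; each group is 1 library, so no test was run. Intervals are exact 95% Poisson or Clopper-Pearson. No doublet caller was run and all cells were kept.

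The members and the 14 lists (members, other replication, nucleotide supply, E2F and G1/S control, replication-dependent histones, mitosis, HSC, megakaryocyte-platelet, erythroid, granulocyte-monocyte progenitor, mature neutrophil, lymphoid progenitor, mature B, T and NK cell, macrophage) were chosen with earlier results of these data known. Named genes are members at least 2-fold apart with 10 CPM in 1 library of the pair, the 5 members farthest from the median member, the highest and lowest genes of each other list, and the 10 genes most like the module. 1 of these 10 is not reported here.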

Additional observations from a re-analysis of the deposited data

How the results depend on the processing

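No paired analysis was possible because each group is 1 library, and no replicate could be left out. The median log2 ratio of the module ran from 0.21 to 0.51 for HPC1 over HSC1, 0.45 to 1.07 for MPP2-containing over double-negative cells, 0.52 to 1.07 for HSC2/MPP4 over CD48-negative HSC2 and -0.42 to -0.12 for CD48-negative HSC2 over double-negative cells, over 12 alternatives on counts; in deposited scores the last was 0.04, on the other side of 0. Cause was not tested for any change here. Members at least 2-fold higher in HPC1 numbered 2 by mean CPM per cell, 1 after thinning and 0 with 50 CPM added, against 5; in MPP2-containing cells 16 without the highest cell of each gene, 18 without the deepest 10% of cells, 25 by mean log2 and 5 with 50 CPM added, against 10; in HSC2/MPP4 3 with 50 CPM added and 24 by mean log2, against 16. In CD48-negative HSC2, 1 was higher by mean CPM per cell, against 0, and 0 were lower after thinning or with 50 CPM added and 4 by mean log2 or with 1 CPM added, against 1. In the order HPC1, HSC1, MPP2-containing, HSC2/MPP4, CD48-negative HSC2 and double-negative, the summed CPM of the module was 5166, 3967, 6443, 5800, 2888 and 3464 as a mean per cell, 5687, 3841, 6819, 6253, 3109 and 3453 without the highest cell of each gene, 5411, 3902, 6974, 6362, 2905 and 3357 without the deepest 10%, and 5044, 3985, 6402, 5949, 3173 and 3529 after thinning. Chosen after seeing the data, leaving out the cell with most member counts gave 5969, 4021, 7041, 6319, 3255 and 3627, leaving out cells rich in neutrophil genes gave 6082 in HPC1 and 7297 in MPP2-containing cells, and leaving out cells below 10000 counts gave 3672 in CD48-negative HSC2. In the same order, cells above 2000 CPM made up 71.6, 65.0, 93.8, 76.5, 53.0 and 66.7%, above 1000 CPM 98.8, 93.8, 100, 95.1, 83.3 and 94.7%, and above 4000 CPM 46.9, 28.8, 60.0, 54.3, 22.7 and 20%. The median correlation of a member with the rest was 0.39 after thinning, against 0.50. Over all settings, the values of members at least 2-fold apart moved little 394 times and moved 22 times. Leaving out members of low level or with a capped score cannot change a member's own value. Deposited scores were compared for direction alone, so 394 overstates how firm these values are. Of the main results, 113 values moved little, 59 moved and 1 reversed. Depth limits CD48-negative HSC2 most, where 3 counts are 1.08 CPM.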
